A study of Mus musculus with 8 samples.

Results

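The cytosolic ribosomal protein genes were taken as the protein-coding rows of the expression table whose symbol begins with Rpl or Rps and a number, or is Rplp0, Rplp1, Rplp2 or Rpsa, leaving out the Rps6k kinases. This gave 80 of the 22200 genes in the table, of which 48 name the large (60S) subunit, 30 the small (40S) subunit, and the remaining ones, Rpl7l1 and Rps19bp1, carry a ribosomal symbol without being structural ribosomal proteins. Rpl7l1 is a factor of ribosome assembly, and Rps19bp1 is a nucleolar protein that binds Rps19. The cells were immortalised mouse embryonic fibroblasts on the C57BL/6 background, all labelled TAF4-/- by genotype, the untreated controls included. TAF4 is a part of the TFIID complex that starts transcription. The sample titles carry cl1, whereas the study gives the name C1 to its line that still expresses TAF4, so the genotype behind the values is not settled by the labels. Per the study's methods its null line was made from a line with a floxed Taf4 allele, which was removed in culture with Cre recombinase. The study asked how these fibroblasts respond to all-trans retinoic acid (RA). Cells without treatment at 12 h (untreated) gave 3 libraries. RA for 12 h gave 3 more, and RA for 72 h gave 2. No untreated library stands beside the 72 h group, so RA and time in culture cannot be told apart there, and the labels do not say that replicates came from separate cultures, so p-values measure the spread between these libraries.

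Values are normalised reads per gene. The authors brought all 8 libraries to the same distribution, running from 1 to 165593 with a median of 20.75, so that depth per library is unknown and a value is in effect a rank. The lowest value, 1, is a floor. Taf4a, the targeted gene, lay between 984 and 1449 in all 8 libraries, which are therefore described by their labels only, and no direction below rests on it since all share the label. Of 10 fibroblast markers 7 had a mean over 1000 and 1 (Thy1) lay below 10; the summed level of the fibroblast list was 220696 to 262320 normalised reads per library, against at most 40.6 for 6 epithelial, 79.0 for 5 endothelial and 62.2 for 6 haematopoietic markers.

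Ribosomal proteins are the protein part of the ribosome, the particle that reads messenger RNA and joins amino acids. Nearly all of them are needed in every growing cell, and they are made in matched amounts. Their messages are among the most abundant in a mammalian cell and begin with a run of pyrimidines that places their translation under the mTOR kinase, and most of the genes have left many processed copies (retropseudogenes) across the genome, so that a short read from one is hard to place.

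Per the labels, the libraries were made from DpnII tags, the 17 bases that follow the GATC site nearest the 3′ end of each cDNA. The tags of a few members are therefore shown here, because the level at which a gene was listed differed with how often its tag occurs in the genome. Each is written from 5′ to 3′ on the strand of the gene, with the DpnII site in capitals, and coordinates are on mm9 (NCBIM37). The first 3 occur once in the genome and belong to genes listed at a high level.
Rpl8: GATCgtgtgttgtctggagga
Rpl11: GATCctgggaccacaagcact
Rps20: GATCatgctcaatggaaagtg
The Rpl8 tag lies in the coding sequence at chr15:76735300-76735320 on the plus strand. The Rpl11 tag lies in the 3′ UTR at chr4:135605799-135605819 and the Rps20 tag in the 3′ UTR at chr4:3759346-3759366, both on the minus strand. The next pair belongs to genes with a mean below 10, although each encodes a protein that every ribosome carries.
Rps2: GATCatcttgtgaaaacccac
Rpl7a: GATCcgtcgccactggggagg
The Rps2 tag (chr17:24858757-24858777, plus strand, coding sequence) has 53 exact matches in the genome, 24 of them in annotated pseudogenes and 16 in other genes. The Rpl7a tag (chr2:26768684-26768704, plus strand, coding sequence) has 29 matches.

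The levels of the 80 genes were parted by a gap between 362 and 1565 normalised reads. In the mean over the 8 libraries, 21 genes lay over 1000, 27 between 10 and 1000, and 32 below 10. The lowest of the first set was Rps19bp1 with 1565 normalised reads and the highest of the second Rpl7l1 with 362. Among the 20078 other protein-coding genes, 9.2% lay over 1000, 52.8% between 10 and 1000 and 38.0% below 10. The median member had a mean of 15.9 normalised reads, against 35.2 for the other protein-coding genes, while 14 members stood among the 100 highest genes of the table. The boundary at 1000 was set after the levels were seen. That at 10 is the lowest mean tested, and the levels run on across it without a break.

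**Figure D1:**
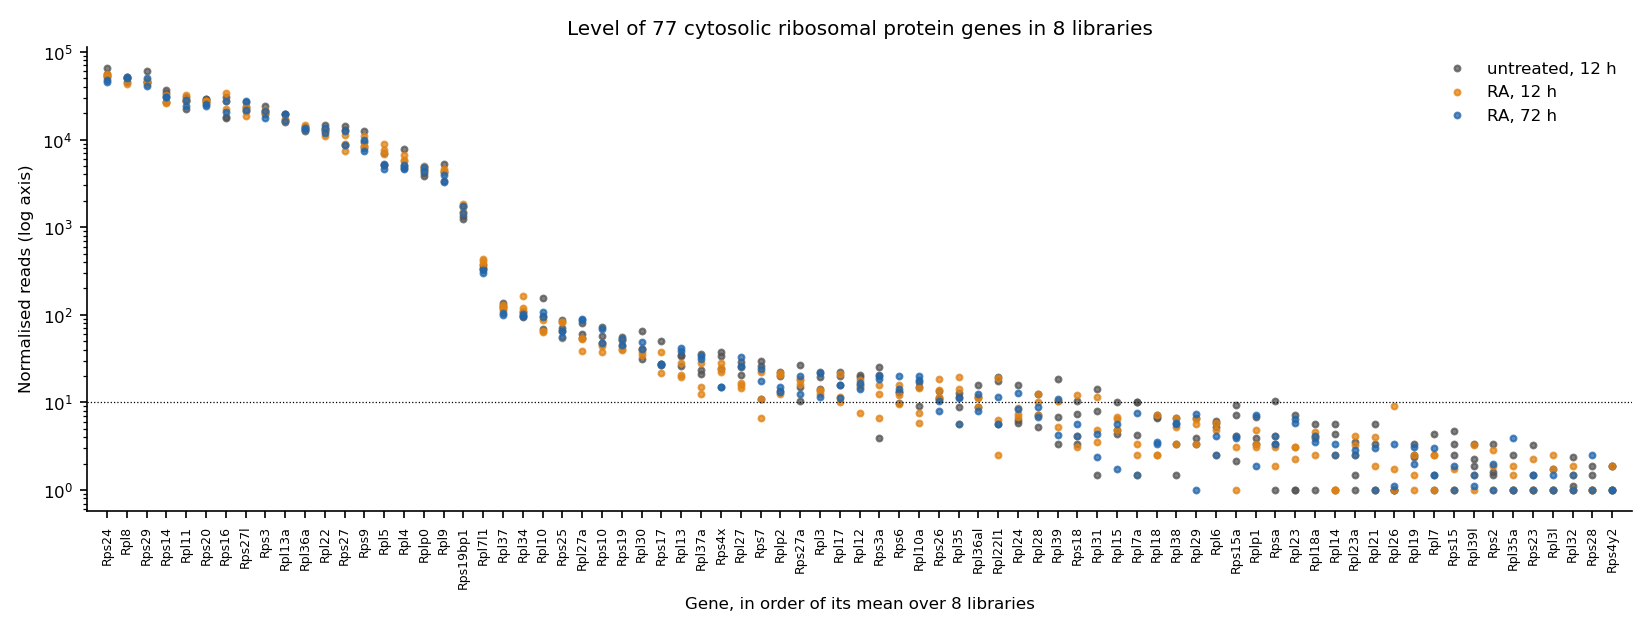
Normalised reads (log axis) of 77 ribosomal protein genes in the 8 libraries, in order of the mean, coloured by group, with a dotted line at 10, the lowest mean tested. The 19 genes at the left stay above 1000 in every library, and the next gene, Rpl7l1, has a mean of 362.

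Rps24, a small-subunit protein, was the highest member with 53627, 65328 and 55334 normalised reads in the untreated libraries, 53627, 55334 and 51846 at RA 12 h, and 45846 and 47208 at RA 72 h. Both 72 h libraries were below all others. Rpl8, which lies near the peptidyl transferase centre, had 50218, 45846 and 51846 untreated, 51846, 50218 and 43233 at RA 12 h, and 50218 and 51846 at RA 72 h. These 3 sets of values overlapped. Several figures recur because the normalisation hands out a fixed set of values. Of the values of the 21 high genes, 57.7% occurred more than once among them, in the same gene or in another.

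Rps29, Rps14 and Rpl11 followed with means of 47435, 30429 and 27528 normalised reads. Further small-subunit genes over 1000 were Rps20, Rps16, Rps27l, Rps3, Rps27 and Rps9, and the other large-subunit genes were Rpl13a, Rpl36a, Rpl22, Rpl5, Rpl4, Rplp0 and Rpl9. Neighbours in this order were seldom apart: in 18 of the 20 neighbouring pairs the ranges over the 8 libraries overlapped, and 4 pairs kept their order in every library. The exceptions were Rps29 over Rps14 and Rpl9 over Rps19bp1. A tag is read once per transcript whatever its length, while reads of fragmented RNA grow with length, and the labels and the study's methods differ on which was made, so the order is given both ways. Per kilobase of the first coding transcript Rps24 (123314 per kb), Rps29 (121629 per kb) and Rpl8 (57319 per kb) were again highest, and Rps20 went from place 6 by level to place 15.

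Genes whose products belong to one structure were listed at very different levels. Of the stalk, which recruits elongation factors to the ribosome, Rplp0 had a mean of 4518 normalised reads, while its partners Rplp1 and Rplp2 had 4.30 and 17.3, and Rpl12, at the base of the stalk, had 15.8. Per kilobase Rplp0 stood at 3327 normalised reads. Of the particle that carries 5S ribosomal RNA and can bind the p53 inhibitor Mdm2, both partners were high, with means of 6351 for Rpl5 and 27528 for Rpl11. Rps6, the substrate of the S6 kinases, had a mean of 13.5, and Rps27a, made as a fusion with ubiquitin, had 17.2.

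At the lower end, 21 members were at the floor of 1 in at least 1 library. Rps2, Rps23, Rps28 and Rpl32 all had means below 2, with Rpl32 at 1.42 and Rps28 at 1.36. Such values cannot be read as a lack of expression, since every ribosome carries these proteins. Rps4y2 had the lowest mean, 1.33.

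The level went with the number of exact matches of the tag. For 79 members a coding transcript was at hand, and the tag of the first transcript by name was searched in both strands of the assembled chromosomes. Of 19 members whose tag had 1 match, 10 (52.6%) had a mean over 1000, and of 19 with 2 to 4 matches, 8 (42.1%). Of 32 with 5 or more matches, 2 (6.2%) did: Rps24, whose other isoform Rps24-204 has a tag with 1 match, and Rps27. Of 4 genes without a site (Rps25, Rpl37a, Rpl22l1 and Rpl31) and 4 with the site too close to the end (Rpl34, Rpl27a, Rps3a and Rpl29), 0 did, nor did Rpl3l, whose tag had no match. Among the other protein-coding genes the shares over 1000 were 9.6% with 1 match, 14.7% with 2 to 4, 6.8% with 5 or more, 0.3% of 342 genes without a site, 6.6% of 512 with the site too close to the end, and 11.7% of 410 whose tag had no match.

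**Figure D2:**
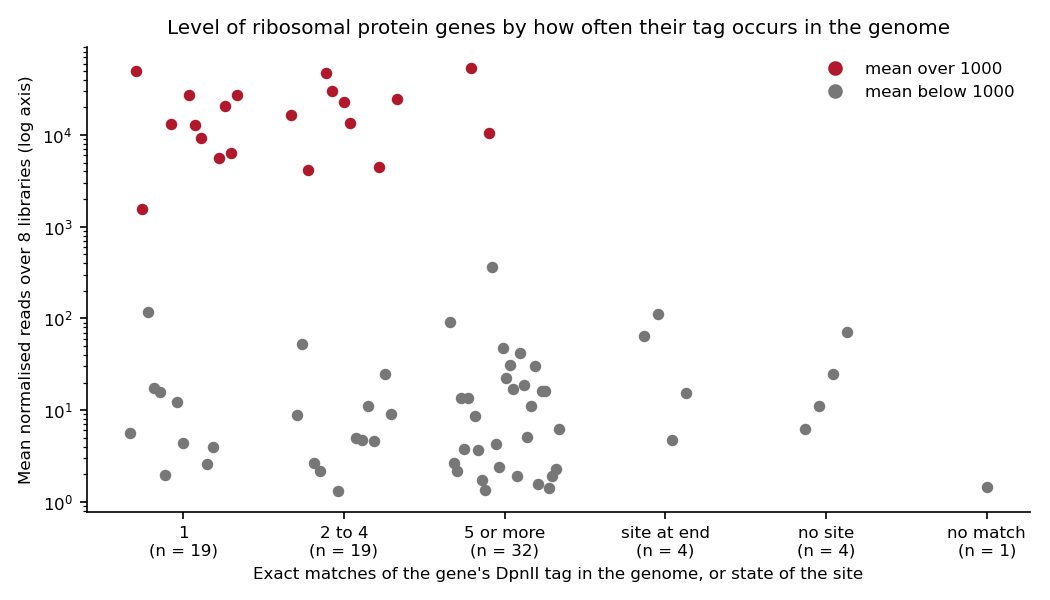
Mean normalised reads over the 8 libraries (log axis) of 79 ribosomal protein genes against the number of exact genome matches of the DpnII tag of the first coding transcript, or the state of the site where there is no tag. Red points, with a mean over 1000, are 10 of 19 at 1 match, 8 of 19 at 2 to 4 and 2 of 32 at 5 or more.

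The median number of matches was 1.5 for the high genes with a tag and 5.5 for the other members with one. The relation has exceptions on both sides. Rps29, Rps16, Rpl36a and Rplp0 were high with 4 matches each, and Rplp2, Rpl12, the row Rps26, Rpsa, Rpl15, Rps15a, Rpl21 and Rpl39l were below 20 with a single match. Rpl37 had a mean of 119 with a tag of 1 match in the 3′ UTR (chr15:5069102-5069122, plus strand). How the authors treated reads with several matches is not given in the sources used here, and the part of these matches in the levels was not tested.

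The pairs of a ribosomal protein gene and its paralogue showed which copy was listed. Rps27l (mean 23098) and the row named Rps27 (10554) were both high, with 77.1% identity over the aligned coding sequences. Rpl22 (12761) stood far above Rpl22l1 (10.97), with 69.3% identity, and Rpl36a (13372) above Rpl36al (10.98), with 87.9%. Rpl7l1 (362) was above Rpl7 (2.17), with 57.2% identity. Rpl3 with 16.1 and Rpl3l, a muscle form, with 1.44 were both low, as were Rpl39 (8.73) and Rpl39l (1.98). Reads of such pairs and of their pseudogenes can be divided by the counting, so each level here is uncertain.

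The identifiers of a few rows went against their symbols. That of the row Rps27 is annotated as Gm9846 on chromosome 9, at chr9:114891515-114891858, and that of Rps26 as Rps26-ps1 on chromosome 8, both without introns in a span close to the message itself (344 and 413 bases). That of Rpl13a was not found in the annotation.

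All members together took 4.57% ± 0.21 (SD, n = 3) of the normalised reads in the untreated libraries, 4.46% ± 0.10 (SD, n = 3) at RA 12 h and 4.29% ± 0.17 (SD, n = 2) at RA 72 h. By library the shares were 4.49%, 4.80% and 4.42% untreated, 4.503%, 4.53% and 4.35% at RA 12 h, and 4.176% and 4.414% at RA 72 h. RA 12 h overlapped with both other groups, and the higher RA 72 h library lay just under the lowest untreated one, at 4.415%. In such bulk samples fewer cells of a type and less RNA per cell cannot be told apart. The 21 high genes made up almost all of it, since the 59 others held between 0.013% and 0.017% per library.

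Small-subunit genes took 3.05% ± 0.24, 2.91% ± 0.02 and 2.79% ± 0.15 in the 3 groups in the same order, and large-subunit genes 1.5% ± 0.05, 1.52% ± 0.07 and 1.48% ± 0.02. In each set the range of RA 12 h overlapped with that of untreated cells. At RA 72 h the small-subunit shares, 2.688% and 2.902%, lay below the lowest untreated one, 2.907%, the higher of them only just. The large-subunit shares at RA 72 h overlapped with the untreated ones. The 76 mitochondrial ribosomal protein genes took 0.696% ± 0.018, 0.682% ± 0.010 and 0.694% ± 0.008. No test was made of these sums. They and the shares of all members hold only rows chosen by symbol. Left out was the row AC112142.4, described as 60S L41, with 165593 normalised reads in untreated replicate 1 and 134320 in untreated replicate 2. The large-subunit genes together had 146326 and 138176 in those libraries.

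The 48 members with a mean of at least 10 were tested in one fit over all 12673 genes of that level, on the log2(value + 1) scale, which understates changes of low genes. After 12 h of RA no member differed from untreated cells at an adjusted p below 0.05 by limma, where 4.37% of all genes tested did and 1.42% also changed at least 2-fold, and 3 members (Rpl5, Rpl34 and Rpl27) had an unadjusted p below 0.05, against 16.3% of all genes. The members' median log2 change was -0.12, against -0.02 over all genes tested, with 15 members above 0 and 33 below. Among all genes tested 6015 were above 0 and 6655 below. The median was -0.028 in the 21 high members, with 9 above 0 and 12 below. In the 27 tested members below 1000 it was -0.249, with 6 above 0 and 21 below. All 21 high members had a 95% interval within 2-fold in either direction, and the highest of their changes was that of Rpl5 (0.44).

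At RA 72 h against untreated cells 1 member, Rps4x, passed, and it was lower, where 11.5% of all genes tested passed in either direction and 5.41% were lower. It was also the only member changed at least 2-fold, against 3.67% of all genes and 1.52% in that direction. The median change of the tested members was -0.09, against -0.02 over all genes. Again all 21 high members had intervals within 2-fold, and none of the changes among them went beyond -0.32 (Rps24) and 0.16 (Rps19bp1). Rps24, with both 72 h libraries below the untreated ones, had an adjusted p of 0.187 by limma.

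**Figure D3:**
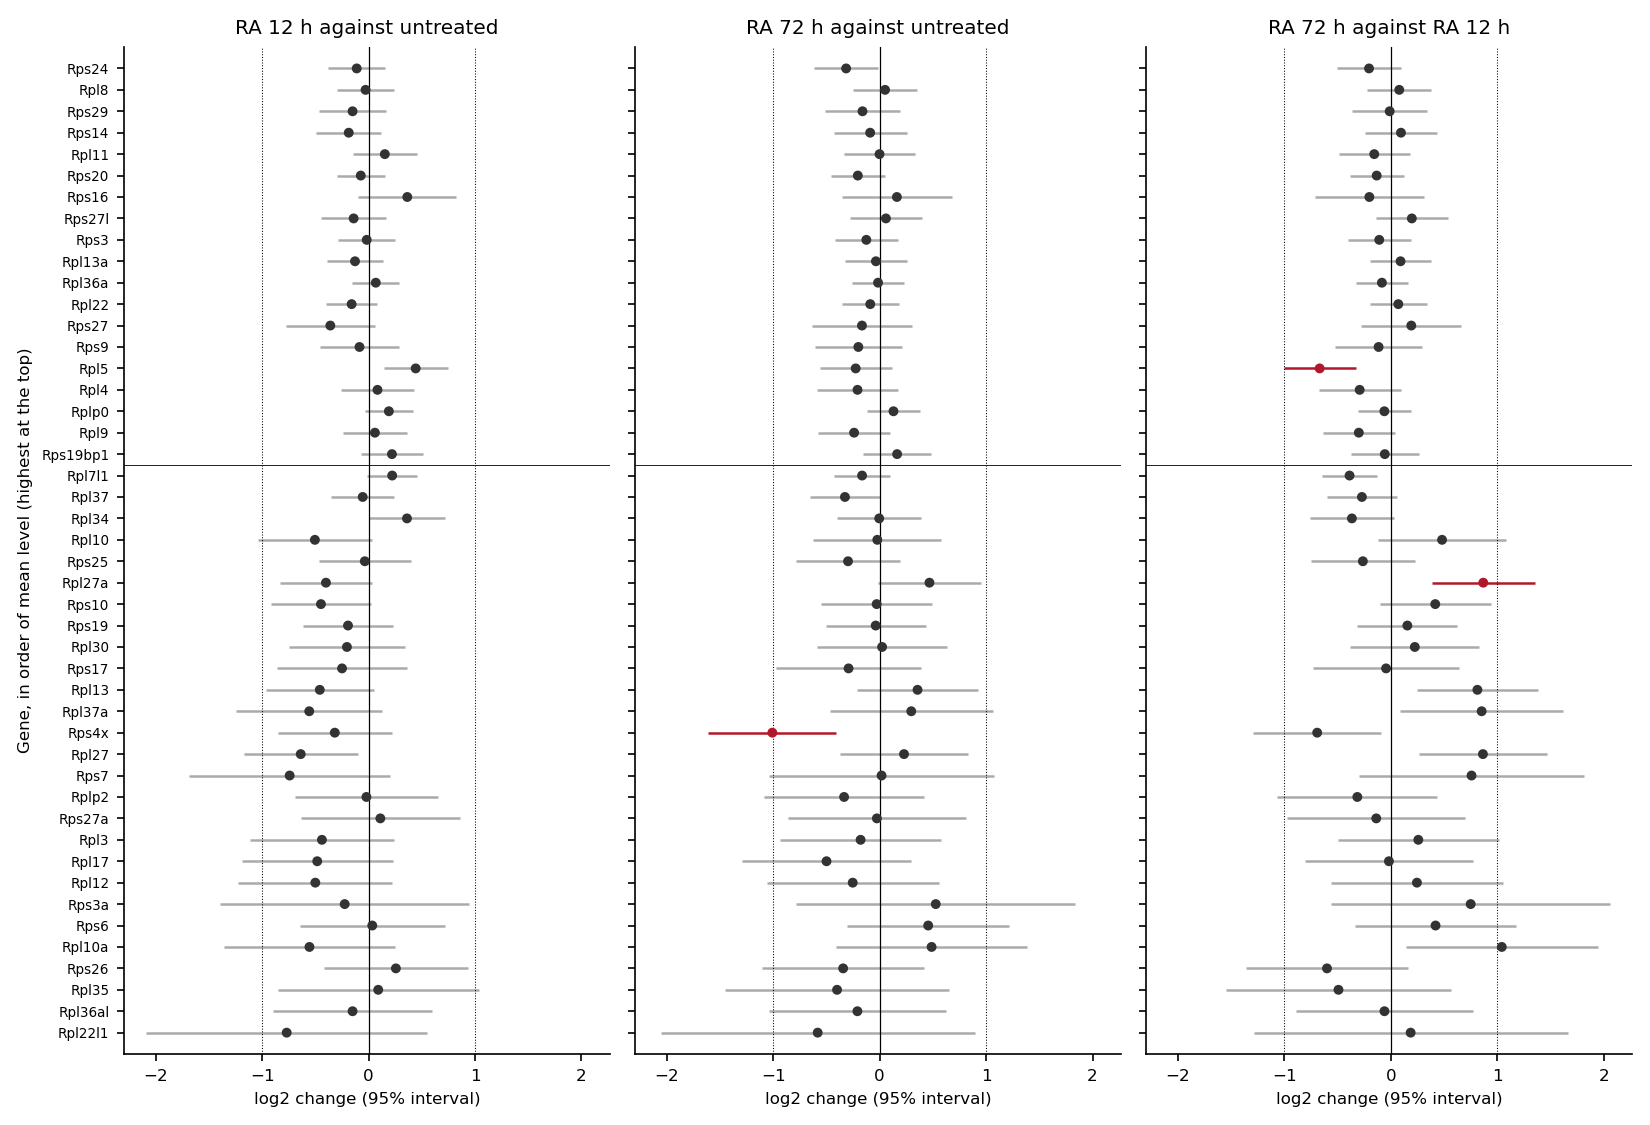
log2 change with its 95% interval of 46 tested ribosomal protein genes in the 3 comparisons, highest level at the top, with 19 genes over 1000 above the horizontal line, dotted lines at 2-fold and genes with an adjusted p below 0.05 in red. Intervals of the high genes lie within 2-fold except that of Rpl5 in RA 72 h against RA 12 h, and the 3 red points are Rps4x, Rpl27a and Rpl5.

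Between RA 12 h and RA 72 h 2 members passed, Rpl27a, which was higher at 72 h, and Rpl5, which was lower, where 5.84% of all genes tested passed, 2.92% higher and 2.92% lower. Neither was changed 2-fold, against 1.5% of all genes. The median change was -0.038, against -0.002 over all genes, and the interval of 20 of the 21 high members lay within 2-fold. The comparisons share libraries, so their values for a gene are not independent.

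Rps4x, the X-linked form of a small-subunit protein, had 33.6, 37.1 and 24.3 normalised reads untreated, 22.0, 28.1 and 24.8 at RA 12 h, and 15.0 in both RA 72 h libraries. Both 72 h values were below all 6 others, while untreated and RA 12 h values overlapped. The log2 change at 72 h against untreated was -1.01 ± 0.28 (SE), with an adjusted p of 0.0314 by limma. Its level is low and its tag, in the coding sequence at chrX:99380436-99380456 on the minus strand, has 3 matches, 1 of them in an annotated pseudogene.
Rps4x: GATCtctcttcccagaggaaa
It no longer passed without untreated replicate 1 (adjusted p = 0.107 by limma) or 2 (0.0924), RA 12 h replicate 2 (0.0529), or RA 72 h replicate 1 (0.155) or 2 (0.13), with the log2 change between -1.01 and -0.89, and without the filter on low genes (0.0939).

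Rpl27a, a large-subunit protein, had 79.6, 53.8 and 59.9 normalised reads untreated, 38.4, 53.9 and 53.1 at RA 12 h, and 90.4 and 86.3 at RA 72 h. Both 72 h values were above the other 6. The log2 change from 12 h to 72 h was 0.87 ± 0.22 (SE), with an adjusted p of 0.0381 by limma, and against untreated cells it was -0.40 at 12 h and 0.47 at 72 h, with adjusted p of 0.35 and 0.227. The first transcript of Rpl27a has its last DpnII site 13 bases from the end, too close for a tag, and the tag of its other transcript has 8 matches. Rpl27a no longer passed without any one of the 5 RA libraries, with changes of 0.71 to 0.95: adjusted p was 0.154, 0.0792 and 0.0537 without RA 12 h replicates 1, 2 and 3, and 0.202 and 0.182 without RA 72 h replicates 1 and 2.

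Rpl5 had 7089, 5158 and 5167 normalised reads untreated, 9003, 7665 and 6880 at RA 12 h, and 5243 and 4600 at RA 72 h. The 72 h values were below all 3 at 12 h, and both overlapped with the untreated ones. From 12 h to 72 h the log2 change was -0.67 ± 0.16 (SE), with an adjusted p of 0.0231 by limma. At 12 h against untreated it was 0.44 (adjusted p = 0.111 by limma), or 0.60 without untreated replicate 1 (adjusted p = 0.0346 by limma), and at 72 h -0.22 (0.429). Its partner Rpl11 had log2 changes of 0.153, -0.001 and -0.155 in the same comparisons, with adjusted p of 0.623, 0.997 and 0.666. Rpl5 no longer passed without RA 12 h replicates 1 (0.109) or 2 (0.0824) or RA 72 h replicates 1 (0.0764) or 2 (0.215), with changes between -0.76 and -0.56. Its tag, in the 3′ UTR at chr5:108337362-108337382 on the plus strand, occurs once in the genome.
Rpl5: GATCatcaggacatttattac

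**Figure D4:**
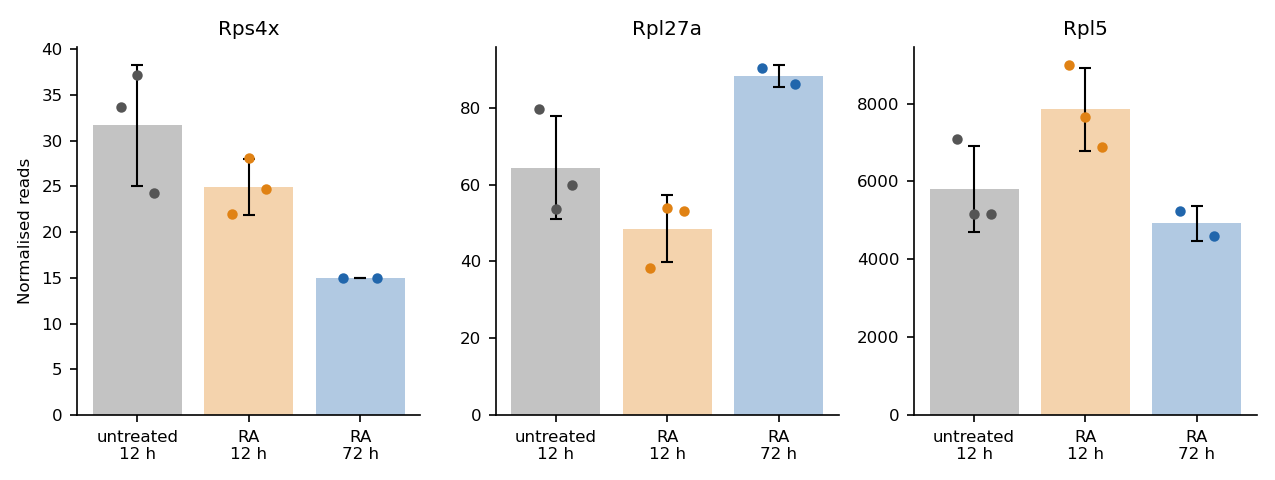
Normalised reads of Rps4x, Rpl27a and Rpl5 in each library (points), with the group mean (bars, from 0) and SD (error bars). Rps4x is at 15.0 in both RA 72 h libraries, and Rpl5 is at 6880 or more in the 3 RA 12 h libraries and at 5243 or less in those of RA 72 h.

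The lowest tested members had wide intervals. Rpl22l1 (mean 10.97) ran from 2.5 to 19.5 over the libraries, and its change at RA 12 h, -0.77, had a 95% interval of -2.09 to 0.55. Rpl35 and Rpl36al, with means of 11.1 and 10.98, had changes of 0.09 and -0.15 at 12 h and -0.40 and -0.21 at 72 h. Rpl10a (mean 13.4) had the largest change of any member between 12 h and 72 h, 1.04, with an interval of 0.14 to 1.94 and an adjusted p of 0.185 by limma. Of the 27 tested members below 1000, 16, 14 and 11 had an interval within 2-fold in the 3 comparisons.

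Within groups the high members had a larger median spread than the other genes over 1000. The median within-group SD was 0.18 on the log2 scale for the 21 high members and 0.13 for 1859 other genes over 1000. Between 10 and 1000 it was 0.34 for 27 members and 0.20 for 10766 others. The sets were parted at 1000 and not matched further for level, and the part of level in these differences was not tested.

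Libraries also differed within groups along a shared axis. In the tested genes that are no members, a single axis held 50.1% of the variance within groups. Side 1 of this axis holds replicates 1 and 2 of the untreated cells with replicate 3 of RA 12 h and replicate 2 of RA 72 h, and side 2 holds the other 4 libraries. Of the 21 high members, 9 (42.9%) had no overlap between the sides, 4 higher on side 1 and 5 on side 2, where 18.8% of all genes over 1000 (9.41% higher on side 1 and 9.36% on side 2) and 15.3% of all tested genes did. Of all 48 tested members 10 (20.8%) had none, and of the 27 below 1000 only 1 did, Rpl22l1. The members were not used to find the axis.

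Rps16, a small-subunit protein, had 17474, 18129, 22110 and 20412 normalised reads on side 1 and 30273, 34022, 27160 and 27694 on side 2. The row Rps27 went the other way, with 12683, 14274, 11232 and 12344 on side 1 and 8739, 7413, 9003 and 8739 on side 2. On the log2 scale side 2 differed from side 1 by 0.61 for Rps16 and by -0.57 for Rps27, both more than any change of a high member between untreated and treated groups. Rps19bp1 (0.34), Rplp0 (0.21) and Rpl36a (0.13) were also higher on side 2, and Rps9 (-0.41) and Rpl13a (-0.22) on side 1. What divides the sides was not tested. Over the 20 high members with a transcript, the difference between sides had a Spearman rho of 0.09 with the GC content of the transcript, -0.11 with that of the tag and 0.30 with transcript length, given as a description across genes that share the 8 libraries.

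**Figure D5:**
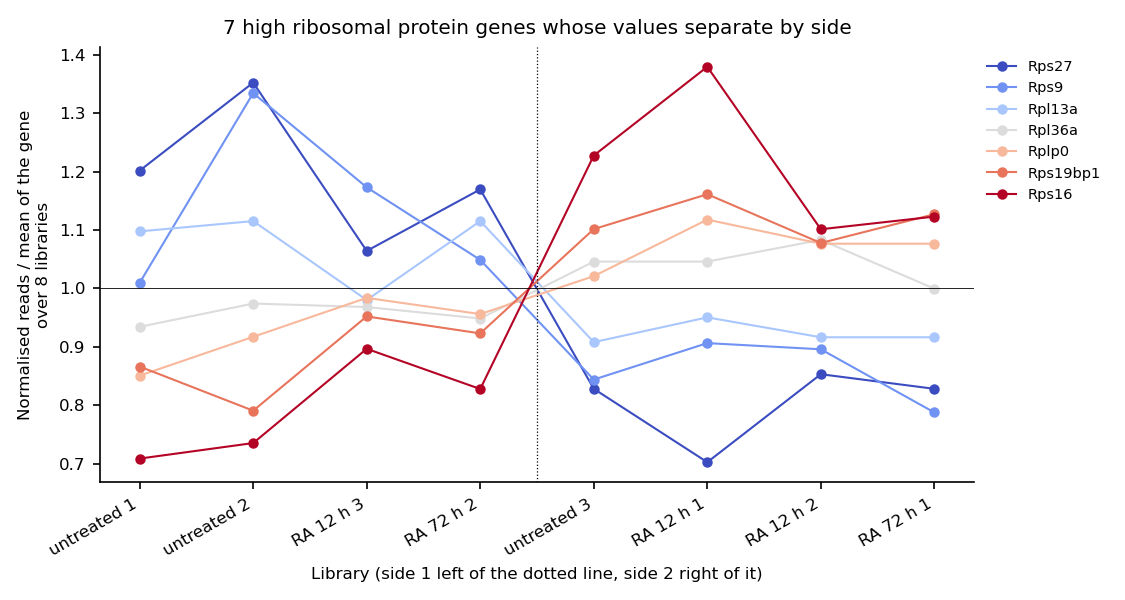
Normalised reads of 7 high ribosomal protein genes without overlap between the sides, each divided by its mean over the 8 libraries, with side 1 libraries left of the dotted line and side 2 right of it. Rps27, Rps9 and Rpl13a step down from left to right and the other 4 step up, in each of the 3 groups.

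Each side holds libraries of all 3 groups, so the comparisons could be made within sides. The median change of the tested members at RA 12 h was -0.12 within side 1 and -0.001 within side 2, and at RA 72 h it was -0.08 and -0.02. Rps4x at 72 h was -1.18 and -0.66, Rpl27a from 12 h to 72 h was 0.69 and 0.97, and Rpl5 was -0.58 and -0.66. When the fit also held the side, Rps4x, Rpl27a and Rpl5 still passed (adjusted p = 0.0123, 0.00689 and 0.00108 by limma) although Rps4x was then changed by less than 2-fold (-0.98). The side was itself taken from the spread within groups of these libraries, so holding it lowers that spread and the p-values of many genes. Without it 5.84% of all genes tested passed between 12 h and 72 h. The smaller p-values are therefore no separate support for these members. In that fit 4 further members, Rpl13, Rpl27, Rpl7l1 and Rpl9, passed between 12 h and 72 h, so that 6 of 48 (12.5%) did, against 14.6% of all genes tested.

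Genes whose values do not overlap between groups were also counted. At RA 12 h against untreated 12.5% of the 48 tested members did not overlap, against 20% of all tested genes, and at 72 h against untreated 25.0% against 36.6%. Between 12 h and 72 h it was 37.5% against 37.3%. Of these members 2 were higher and 4 lower at 12 h, 4 higher and 8 lower at 72 h against untreated, and 8 higher and 10 lower from 12 h to 72 h. Among the 21 high members there were 1, 2 and 5 in the 3 comparisons (4.76%, 9.52% and 23.8%), each a smaller share than among all tested genes. All were lower in the later or treated group, but the share of all genes in that direction was not counted. They were Rpl22 at 12 h, Rps20 and Rps24 at 72 h against untreated, and these with Rpl5, Rpl4 and Rpl9 from 12 h to 72 h.

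Other genes of protein synthesis were looked at as lists. None of the 33 tested initiation factors and none of the 9 tested elongation factors passed at RA 12 h (6 and 3 with an unadjusted p below 0.05 by limma). Over all genes tested 4.37% passed at RA 12 h, and 16.3% had an unadjusted p below 0.05 by limma. At 72 h 11.5% of all genes passed against untreated and 5.84% against 12 h. At 72 h Eef2k, the kinase of elongation factor 2, was lower than in untreated cells (log2 change -0.57), and Eef2 (-0.46) and Eif5b (-0.43), which joins the subunits, were lower than at 12 h. Of the genes of these further lists, Cdkn1a and Mxd3 were named by rule, and all others after their values were seen, as few passed.

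Factors of ribosome assembly were taken as a further list. The median change of the 52 tested was 0.03 at RA 12 h, -0.21 at 72 h against untreated and -0.17 at 72 h against 12 h, where the medians of all genes were -0.016, -0.02 and -0.002. In these comparisons 0, 2 and 4 of them passed, all lower (5, 14 and 11 had an unadjusted p below 0.05). Among all genes tested 5.41% were lower at 72 h against untreated and 2.92% against 12 h, and the unadjusted p was below 0.05 for 16.3%, 23.9% and 18.9% in the 3 comparisons. Nip7, which acts in the maturation of 60S subunits, had 1071, 1017 and 1151 normalised reads untreated, 1183, 1090 and 1063 at RA 12 h, and 797 and 777 at 72 h. Both 72 h libraries were below all others, and the log2 change was -0.46 against untreated (adjusted p = 0.013 by limma) and -0.50 against 12 h. Rrp9, a protein of the U3 particle that processes ribosomal RNA, went with it, with changes of -0.44 and -0.49. Ddx21 (-0.72) and Ebna1bp2 (-0.46) were lower at 72 h than at 12 h.

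In a list of regulators around mTOR, Myc and p53, 3 of 27 tested genes were higher at RA 12 h, against 2.87% of all genes tested. Cdkn1a, the p21 inhibitor of cyclin-dependent kinases, had 40.5, 42.1 and 24.6 normalised reads untreated, 117, 109 and 137 at RA 12 h, and 93.8 and 139 at 72 h. All 5 treated libraries were above the untreated ones. Its log2 change was 1.77 at 12 h (adjusted p = 0.000282 by limma) and 1.69 at 72 h. Ddit4, an inhibitor of mTOR complex 1, was higher by 0.70 and 0.58, and the row Frap1, which is mTOR itself, by 0.57 at 12 h. Mxd3, a partner of Max, had 330.5 ± 26.4 (SD, n = 3) normalised reads untreated, 361 ± 46.2 (SD, n = 3) at RA 12 h and 832 ± 39.7 (SD, n = 2) at 72 h, where its log2 change against untreated was 1.33. Sesn1, a p53 target that restrains mTOR complex 1, was lower at 72 h than in untreated cells (-0.49, adjusted p = 0.0366 by limma).

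The mitochondrial ribosome, which is separate from the cytosolic one, had 69 tested genes. None passed at 12 h (8 with an unadjusted p below 0.05 by limma), and Mrpl21 (-0.52 against untreated) and Mrps31 (-0.63 against 12 h) were lower at 72 h. Of 62 tested genes of oxidative phosphorylation, 0 passed at 12 h (5 unadjusted), 1 at 72 h against untreated and 3 against 12 h. Over all genes tested 4.37%, 11.5% and 5.84% passed in the same comparisons, and 16.3% had an unadjusted p below 0.05 by limma at 12 h.

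The starts of the genes share features that the choice of members did not use. RefSeq promoters on GRCm38.p6, from 250 bases before to 50 after the start, were matched by symbol for 59 of the 80 members, and the shares were set beside all 27025 genes with such a window. The motif CCGGAAG, the core of ETS factor sites, was in 39.0% of members' windows and in 9.9% of all, on either strand. AAGATGG, found in YY1 sites, was in 16.9% against 7.3%, GGGCGG in 61.0% against 38.2%, and TATAAA in 11.9% against 15.7%. A run of at least 8 pyrimidines within 3 bases of the start was in 35.6% of members' windows against 8.7%, and CTTTCC or CTTTTC within 20 bases of it on the gene's strand in 23.7% against 3.9%.

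The windows of 15 bases on either side of the start are shown for the highest member (Rps24) and for a member with one of the longest runs (Rpl34). Those of the 3 members that passed a test are shown as well. Capitals mark the longest run of pyrimidines that reaches within 3 bases of the start, and the part after the first 15 bases is transcribed. The run of Rpl34 begins 17 bases before the listed start, so most of it lies outside the transcribed part.
Rps24: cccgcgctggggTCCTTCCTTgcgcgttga
Rpl34: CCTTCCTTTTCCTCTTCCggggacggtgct
Rpl27a: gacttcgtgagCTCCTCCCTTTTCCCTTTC
Rpl5: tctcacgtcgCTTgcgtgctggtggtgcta
Rps4x: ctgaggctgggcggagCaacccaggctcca
On GRCm38.p6 these are chr14:24490663-24490692 (plus strand), chr3:130730323-130730352 (minus), chr7:109519180-109519209 (plus), chr5:107900513-107900542 (plus) and chrX:102189377-102189406 (minus). The run is 9 bases in Rps24, 20 in Rpl34 and Rpl27a, where it goes on beyond the window, and 3 and 1 at the listed starts of Rpl5 and Rps4x. Its median length was 3 bases in the 15 high members with a window and 5 in the 44 lower ones, given as a description. Over all members with a window it was 4, and over all genes with one it was 3, the same as in the high members. These are matches of letters in windows around listed starts. Where a gene had several starts, a motif was counted if any of its windows held it. The start with the longest run was used for run lengths and for the windows shown.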

How the data were processed

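The authors deposited normalised reads per gene for 8 libraries, and the submitters' processing notes name the genome build mm9. The labels describe DpnII tags, whereas the study's methods describe fragmented RNA aligned with Tophat; the tag description was followed. In the deposited table the sorted values of all 8 columns were identical, so the normalised reads are quantile normalised and no count test was used. The deposited table also holds log2 ratios of group averages, not used here. The members, gene lists and rules were chosen with earlier results of these data known.

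Values were taken as log2(value + 1) for genes with a mean of at least 10, and 1 model with 3 groups was fitted to all 8 libraries with limma 3.58.1 (R 4.3.3, variance trend); p-values are two-sided and adjusted by Benjamini-Hochberg over 12673 genes. A gene passed at an adjusted p below 0.05 and was called when it also changed at least 2-fold. The fit was tested on simulated data. By rule, named members are those called, up to 4 passing in each direction and comparison, the 5 highest and 5 lowest tested, the stalk and 5S particle genes and the paralogue pairs; of other lists, up to 2 called genes per comparison. A few members are not reported here by name or in the plots that name genes. Further members were named after their values were seen. Alternatives were another pseudocount, no filter, no variance trend, a replicate block, the side as a term, a span trend taken out, centring on other genes and leaving out each library. Tags of 21 bases (site and 17 bases) were searched in 22 chromosomes of NCBIM37. Where paralogues were compared, their coding sequences were aligned with Biopython 1.88. Identifiers of 21465 of 22200 genes were found in the annotation.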

Additional observations from a re-analysis of the deposited data

Results flagged for a closer look

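For 2 members the effect of RA differed between 72 h and 12 h by the test of the difference itself, which is the comparison of the RA libraries at both times, since both are set against the same untreated libraries. Rpl27a had a difference of 0.87 on the log2 scale (adjusted p = 0.0381 by limma), higher in 2 of 2 libraries at 72 h than in all 3 at 12 h. Rpl5 had a difference of -0.67 (adjusted p = 0.0231 by limma), lower in 2 of 2 libraries. Time in culture and RA cannot be told apart in either.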

How the results depend on the processing

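The counts of members that passed are small and moved with most settings. At RA 12 h against untreated, 1 member rather than 0 was higher with the side as a term (Rpl5), and 7 genes of the other lists (translation, regulators, mitochondrial ribosome and oxidative phosphorylation) passed rather than 3. At RA 72 h against untreated the number of members changed 2-fold fell from 1 to 0 with a pseudocount of 10, with the side as a term and with the trend over gene span taken out, where Rps4x still passed, and without the filter 0 passed. Genes of the other lists that passed numbered 41 with the side as a term, rather than 9. At RA 72 h against RA 12 h, without the filter 0 members were higher and 0 lower, and 7 genes of the other lists passed rather than 11. Without the variance trend Rpl27a (adjusted p = 0.0656 by limma) and Rpl5 (0.104) no longer passed and Rpl27 did (0.87, 0.0352), so that 0 members were lower and 1 gene of the other lists passed, and with the side as a term 3 members were higher, 3 lower and 41 genes of the other lists passed. Leaving out paralogues and proteins that are not ribosomal gave shares of 4.30%, 4.21% and 4.01% in the untreated, RA 12 h and RA 72 h groups.

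Leaving out 1 library at a time, where a lone RA 72 h library is assumed to vary like the other groups, gave at 12 h against untreated 0 to 1 member higher, 0 to 2 lower and 2 to 16 genes of the other lists. At 72 h against untreated it gave 0 to 2 members lower, 0 to 1 changed 2-fold, 4 to 23 genes of the other lists and a median change of -0.194 (without untreated replicate 3) to 0.001 (without RA 72 h replicate 1). At 72 h against 12 h it gave 0 to 1 higher, 0 to 1 lower, 1 to 26 genes of the other lists and a median of -0.046 to 0.094. Without untreated replicate 3, Rps16 was higher (0.62) and Rpl10 (-0.78) and Rps27 (-0.57) lower at 12 h, and Rpl9 (-0.40) was lower at 72 h. The median of all tested members at 12 h stayed below 0 throughout (-0.16 to -0.07 without 1 library). It was not split here into high and lower members, which differed in the main fit.

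Replicate numbers did not pair the libraries: the correlation of deviations from the group means between same-numbered libraries ran from -0.47 to 0.42. With a replicate block, 0 members were lower and 0 changed 2-fold at 72 h against untreated (Rps4x -1.10, adjusted p = 0.0556 by limma) and 5 genes of the other lists passed. At 72 h against 12 h 0 members were higher, 1 (Rpl5, -0.75) was lower and 6 genes of the other lists passed. The cause of these changes was not tested. Choosing for each gene the transcript whose tag has the fewest matches, added after seeing the data, gave 53.8% of members with 1 match over 1000 in place of 52.6%. Depth per library is unknown, so no detection limit can be given for members at the floor.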

Other observations

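Ribosomal proteins also stood in rows that the choice by symbol left out, since their symbols are clone names. The row AC112142.4, described as 60S L41, took the highest value of the table, 165593 normalised reads, in 7 of 8 libraries and 134320 in untreated replicate 2. The row AC117232.3, described as 40S S26, had a mean of 7643, against 12.2 in the row Rps26, whose identifier is annotated as Rps26-ps1 and typed as protein-coding. It had 9354, 11447 and 5070 untreated, 7041, 6608 and 9047 at RA 12 h, and 4636 and 7942 at RA 72 h, with the libraries of side 1 above those of side 2. The rows described as 40S S12 and 60S L39 had means of 178 and 130, and EG216818, the ubiquitin fusion that carries L40, had 126.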
